A study of Rattus norvegicus with 9 samples.

Results

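Messenger RNA of gastric lymphatic vessels was compared between rats after 4 h of water stress and rats left without it. The comparison holds 6 of the 9 libraries of the series, all 3 of the control group and all 3 of the model group, and every gene that passed a filter on low counts, 14643 of the 18964 genes in the authors' table. The rats were male Sprague-Dawley animals of 180 to 220 g, labelled WT. All were fasted for 12 h. Control rats had no further intervention before a gavage of distilled water at 10 ml per kg. Model rats were kept singly for 4 h in water of 22 ± 2 °C, 15 cm deep, were dried and returned to their cages, and received the same gavage 30 min later. The labels give this gavage as saline for the model group. Each group had 6 rats, and the labels do not tie libraries to rats, so a library may hold 1 animal or several, and p-values then measure no more than the spread among libraries. The other 3 libraries came from stressed rats that received the herbal decoction BXD, and they enter only the estimate of that spread.

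Collecting lymphatic vessels carry interstitial fluid, fat and immune cells away from a tissue, and consist of an endothelial tube, a coat of contracting muscle cells and an outer layer of connective tissue set in fat. Acute stress acts on such a tissue through adrenal glucocorticoids, which bind a nuclear receptor that switches genes on, through catecholamines, whose receptors raise cyclic AMP, and through fasting signals that free FoxO transcription factors from insulin's control. Immersion in cool water, exertion and the hour of the day can act as well. The control rats were not handled in the same way, so these influences cannot be told apart here.

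Between the groups 6177 of 14643 genes were called, meaning that edgeR's quasi-likelihood test gave a Benjamini-Hochberg adjusted p under 0.05. Of all genes tested, 21.6% were called higher in model (3161 genes) and 20.6% lower (3016 genes), and 6.52% were called and at least 2-fold higher and 9.25% called and at least 2-fold lower. The groups did not overlap in 28.9% of genes with model higher and 29.4% with model lower. The median log2 fold change over all genes was -0.01. Because so many genes were called, the share of a gene list that was called is given beside the share of genes of similar level, meaning the decile of all genes by mean level in which the median level of the list falls. Gene length, with which the direction of calls also went, was not matched. The split between higher and lower calls depends on scaling: 51.2% of the calls were higher with trimmed means of M-values (TMM), but 37.7% with upper quartiles, 24.8% when libraries were scaled by size only and 24.9% with the deposited FPKM values. Under the last 3 the median of all genes moved to -0.14, -0.28 and -0.22. Upper quartiles put 16.2% of genes higher and 26.7% lower, library size alone 11.1% and 33.5%, and FPKM put 1608 genes higher and 4860 lower. Directions below are relative to the bulk of genes, and where a median given for a list changed sign with library size alone both values are printed.

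Some libraries stood apart. On the first principal component of the 6 libraries, which held 62.2% of the variance, control libraries lay between -55.1 and -46.1 and model libraries between 41.1 and 66.8. The second component, with 12.6%, set model replicate 2 apart at 38.0. That library had the highest summed level of 41 fat cell genes, and every model library exceeded every control library in this sum, with 50620, 74440 and 41210 CPM in model replicates 1 to 3 and 31680, 21360 and 19480 CPM in control replicates 1 to 3 (CPM, counts scaled to TMM-adjusted library size). The summed level of 28 striated muscle genes was 146, 882 and 109 CPM in model and 181, 148 and 182 CPM in control, so that model replicate 2 alone was high. The 9 tested genes of lymph node stroma summed to 50.1, 135 and 344 CPM in model and 88.4, 93.2 and 75.8 CPM in control, and the 20 lymphocyte genes to 180, 187 and 440.4 CPM and 150.1, 226 and 211 CPM. Both sums were highest in model replicate 3. In RNA from whole vessels, fewer cells of a type and less RNA in each cell cannot be told apart.

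**Figure D1:**
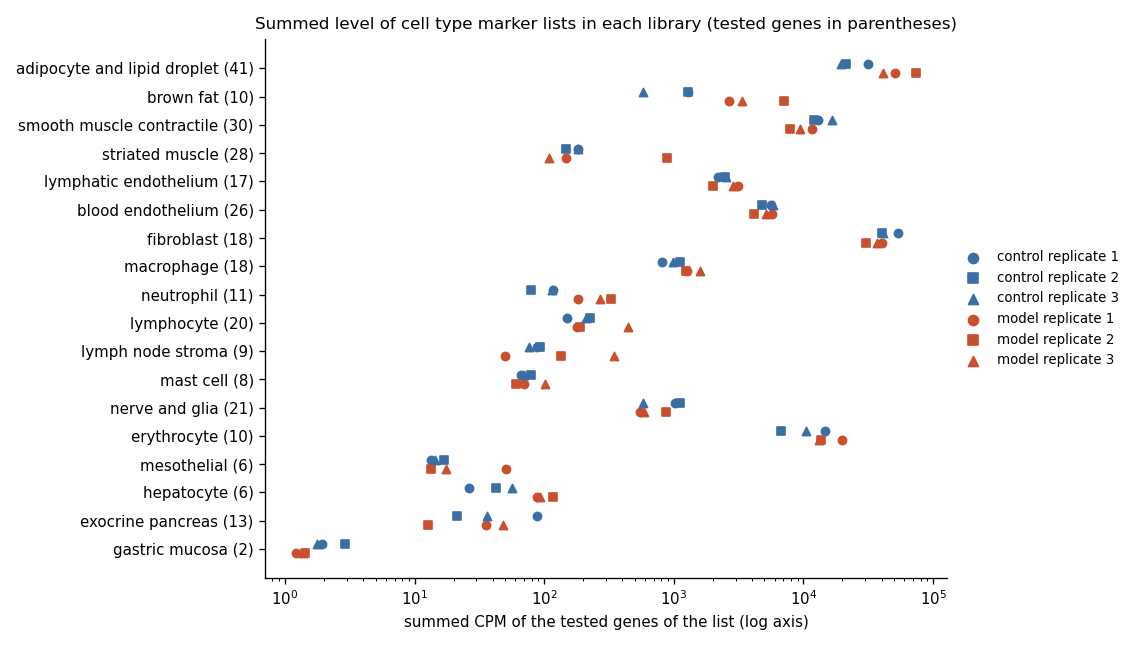
Summed level of 18 cell type marker lists in each of the 6 libraries, in CPM on a log axis, with the number of tested genes in parentheses. Model libraries lie above all control libraries for fat cells, brown fat, neutrophils, macrophages and hepatocyte genes. They lie below all control libraries for smooth muscle and for the 2 gastric mucosa genes, which are near the limit of detection. Model replicate 2 alone is high for striated muscle, and model replicate 3 is highest for lymphocytes and lymph node stroma.

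The vessel's own markers were present in every library. The 17 tested lymphatic endothelial genes summed to 2195, 2478 and 2524 CPM in control and 3102, 2003 and 2840 CPM in model, ranges that overlap. Flt4, the receptor for lymphatic growth factors, stood at 95.3, 114 and 134 CPM in control and 175, 92.7 and 135 CPM in model and Pdpn, podoplanin, at 28.7, 28.6 and 26.9 CPM in control and 45.1, 29.0 and 29.2 CPM in model. Flt4 overlapped between the groups, Pdpn was a little above control in every model library, and neither was called (adjusted p = 0.480 and 0.281). Other markers of the same list were called in opposite directions. Prox1, the factor that keeps lymphatic identity, stood at 68.1, 100.3 and 89.7 CPM in control and 30.4, 13.9 and 28 CPM in model (log2 fold change -1.83, SE 0.35, adjusted p = 0.00391), and Lyve1, a hyaluronan receptor of lymphatic endothelium, at 85.5, 91.2 and 91.4 CPM in control and 304, 196 and 235 CPM in model (log2 fold change 1.45, SE 0.16, adjusted p = 0.000484). Prox1 was below and Lyve1 above control in every model library.

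The metallothioneins, small proteins that bind zinc and copper, rose more than almost any other gene whose groups did not overlap. Mt1 (gene 24567, chromosome 19, 11301986 to 11303133 on the - strand of Rnor_6.0) stood at 16, 18.3 and 26.0 CPM in control and 627, 373 and 447 CPM in model. Mt2A (gene 689415, chromosome 19, 11307966 to 11308740 on the - strand of Rnor_6.0) stood at 14.6, 16.1 and 25.6 CPM in control and 586, 348 and 382 CPM in model. Every model library lay far above every control library in both genes, and the rise was 24-fold for Mt1 (log2 fold change 4.59, SE 0.33, adjusted p = 0.000177) and 23.4-fold for Mt2A (log2 fold change 4.55, SE 0.33, adjusted p = 0.000177). Their short and similar transcripts could share reads. Their sum, which does not depend on how reads were divided between them, went from 38.8 ± 11.2 CPM to 921 ± 259 CPM (SD, n = 3), a ratio of 23.7. Metallothionein genes are classic targets of the metal-sensing factor MTF1, which binds the metal response element. Mt1 and Mt2A also belong to the list of glucocorticoid targets given below, so both count among the higher calls of either list. The 250 bases before the start of both genes, from RefSeq on GRCr8 (a different build from the Rnor_6.0 of the counts), are shown because this element repeats in them. Capitals mark matches to TGCACNC or TGCGCNC on either strand, which do not overlap each other.
Mt1 (chr19:10832976-10833225, minus strand): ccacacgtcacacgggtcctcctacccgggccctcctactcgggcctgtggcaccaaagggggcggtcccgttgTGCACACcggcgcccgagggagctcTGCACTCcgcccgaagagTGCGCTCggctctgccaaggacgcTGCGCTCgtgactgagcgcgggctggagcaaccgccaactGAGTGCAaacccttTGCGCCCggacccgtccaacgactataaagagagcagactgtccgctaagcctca
Mt2A (chr19:10838709-10838958, minus strand): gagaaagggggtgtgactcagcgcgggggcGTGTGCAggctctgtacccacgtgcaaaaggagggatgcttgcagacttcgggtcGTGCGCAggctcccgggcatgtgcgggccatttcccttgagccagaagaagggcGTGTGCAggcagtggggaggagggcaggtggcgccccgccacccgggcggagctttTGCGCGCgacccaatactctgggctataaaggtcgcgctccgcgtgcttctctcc

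Mt1 held 6 matches within these 250 bases and Mt2A 4. Of 11445 tested genes with a promoter in the RefSeq table, 30.8% held at least 1 match to either form, and 52 held 4 or more. In genes called higher the share was 31.6% and in genes called lower 30.9%. A match is a description of the letters and not a bound site. Elements searched without a match in their lists were the glucocorticoid element (GNACA and then TGTNC, 3 free bases apart), in 0 of 20 promoters of the glucocorticoid list and 0.21% of all promoters, and the cyclic AMP element TGACGTCA, in 0 of 24 promoters of the cyclic AMP list and 2.81% of all promoters. This says only that these letters are not in these windows.

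In the list of metallothioneins and zinc transporters 9 of 23 (39.1%, beside 16.7% of genes of similar level) were called higher and 4 of 23 (17.4%, beside 27.4% of genes of similar level) lower. Slc39a14, an importer of zinc and iron, stood at 79.7, 62.3 and 88.7 CPM in control and 354, 301 and 258 CPM in model (log2 fold change 1.98, SE 0.18, adjusted p = 0.000272). Slc30a1, the zinc exporter of the cell surface, stood at 10.6, 12.0 and 11.6 CPM in control and 28.2, 30.4 and 30.0 CPM in model (log2 fold change 1.37, SE 0.12, adjusted p = 0.000248). Neither gene overlapped between the groups, and both were higher in model. The intracellular transporters Slc30a4 and Slc30a7 were 1.97-fold and 1.87-fold higher. Slc39a6, an importer of another branch, was 1.55-fold lower. Loss of a single library took the lower count of the metallothionein and zinc list from 4 to between 1 and 2 without control replicates 1, 2 or 3 or model replicates 2 or 3.

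Among targets of glucocorticoids 13 of 24 (54.2%, beside 51.0% of genes of similar level) were called higher, so the share was near that of genes of similar level, and edgeR called 0 lower (0 at an unadjusted p under 0.05, 0 with DESeq2 and 0 with limma-voom). Their median log2 fold change was 0.67, beside -0.01 for all genes, and the count of higher calls fell to between 6 and 8 without control replicates 1 or 2 or model replicates 1 or 2. Fkbp5, a chaperone of the glucocorticoid receptor and a standard readout of its activity, stood at 48.6, 40.8 and 109 CPM in control and 335, 223 and 180.4 CPM in model (log2 fold change 1.89, SE 0.50, adjusted p = 0.0155). Zbtb16, a transcription factor that glucocorticoids induce, stood at 77.0, 47.8 and 176 CPM in control and 406, 335 and 330 CPM in model (log2 fold change 1.83, SE 0.40, adjusted p = 0.00707). In both genes control replicate 3 was the highest control library and still lay below every model library. Klf9, a transcription factor, was 3.04-fold higher, Glul, glutamine synthetase, 4.46-fold and Gadd45b, a stress protein that links to p38 MAP kinase, 2.95-fold. Mt1 and Mt2A, given above, are also members of this list called higher. Other standard targets were not called. Tsc22d3, known as GILZ, stood at 306, 190.2 and 394 CPM in control and 381, 299 and 362 CPM in model, and Dusp1, a phosphatase, at 324, 145 and 227 CPM in control and 240.4, 207 and 172 CPM in model, and the groups overlapped in both (adjusted p = 0.453 and 0.828). Nr3c1, the receptor itself, stood at 167, 169 and 163 CPM in control and 179, 199.8 and 192 CPM in model (adjusted p = 0.142). Fat cells also make Glul, and the part of the higher fat cell sums given above was not tested. Calls were lost when single libraries were left out for Fkbp5 without control replicates 1 or 2 (adjusted p up to 0.0580). Leaving out 1 library moved the log2 fold change of Zbtb16 from 1.83 to 2.50 without control replicate 3.

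**Figure D2:**
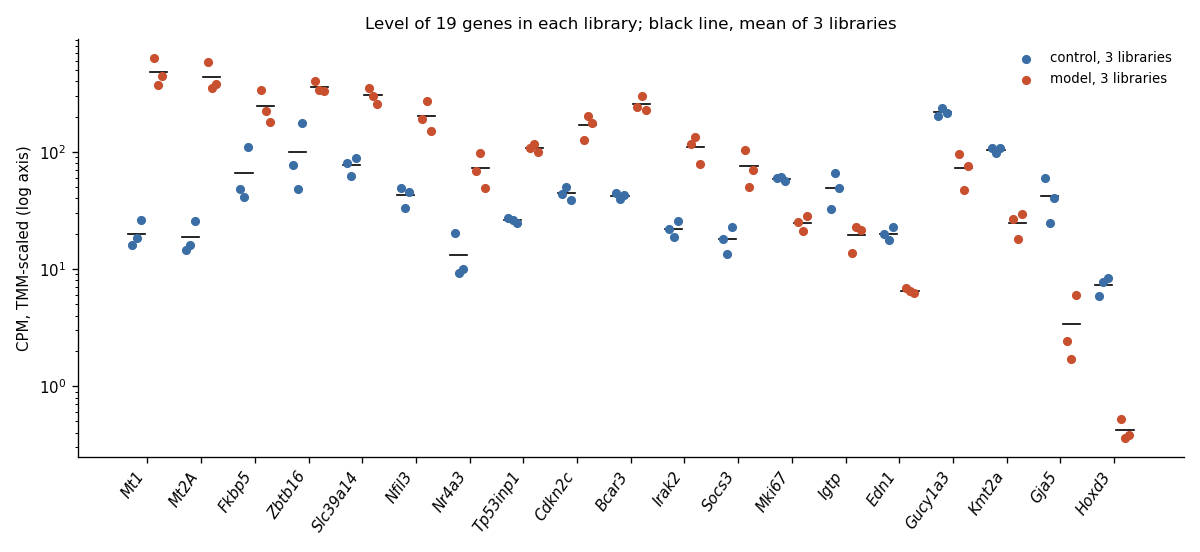
Level of 19 genes in each of the 3 control and 3 model libraries, in CPM on a log axis, with the mean of each group as a black line. The points of the groups do not overlap in any of these genes, and the gap is widest for Mt1 and Mt2A among those that rose and for Hoxd3 and Gja5 among those that fell.

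The core clock genes that rose were mostly repressors, among them Cry2 and Nr1d2. In the core clock 6 of 13 (46.2%, beside 25.8% of genes of similar level) were called higher and 0 lower (1 at an unadjusted p under 0.05, 0 with DESeq2 and 0 with limma-voom). Among genes of clock output 8 of 16 (50%, beside 30.9% of genes of similar level) were called higher and 0 lower (0 at an unadjusted p under 0.05, 0 with DESeq2 and 0 with limma-voom), and the clock output count of higher calls fell to between 3 and 5 without control replicates 2 or 3 or model replicates 2 or 3. Both are counts by edgeR. Nr1d1, a repressor of the clock's activating arm, stood at 12.6, 22.1 and 9.88 CPM in control and 69.0, 55.3 and 100.4 CPM in model (log2 fold change 2.33, SE 0.41, adjusted p = 0.00285). Per1, a repressor gene that glucocorticoids and cyclic AMP also induce, rose 2.54-fold, from 176 ± 57.3 CPM in control to 447 ± 36.5 CPM in model (SD, n = 3). Nfil3, a repressor that opposes the PAR bZIP factors, stood at 49.3, 33.3 and 45.7 CPM in control and 190, 272 and 151 CPM in model (log2 fold change 2.26, SE 0.58, adjusted p = 0.0141). Noct, nocturnin, a rhythmic enzyme that acts on NADP cofactors, stood at 32.9, 22.5 and 16.3 CPM in control and 137, 279 and 127 CPM in model (log2 fold change 2.92, SE 0.45, adjusted p = 0.00177). Fbxl21, a ubiquitin ligase subunit that acts on cryptochromes, rose 3.39-fold. By contrast Arntl, the partner of Clock, stood at 63.5, 59.5 and 68.9 CPM in control and 61.2, 45.4 and 35.4 CPM in model, and Dbp, a direct output of that pair, at 12.5, 15.7 and 11.8 CPM in control and 8.58, 10.7 and 17.6 CPM in model. Both overlapped between the groups (adjusted p = 0.144 and 0.831), and Clock itself was 1.33-fold higher. The mean deposited TPM value of Clock was 15.8 in control and 15.3 in model, so this small rise depends on scaling. The hour of collection is not in the labels, and its part in these values cannot be told apart from that of the stress. With 1 library left out, edgeR no longer called Per1 without control replicates 1, 2 or 3 or model replicates 1, 2 or 3 (adjusted p up to 0.129), Nfil3 without control replicate 2 or model replicate 2 (adjusted p up to 0.0537) and Clock without control replicates 2 or 3 or model replicate 2 (adjusted p up to 0.0855).

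Ciart, the core clock gene with the largest fold, rose from 0.505 ± 0.185 CPM in control to 9.96 ± 3.85 CPM in model (SD, n = 3). Its promoter is shown because it holds 3 copies of the E-box CACGTG, the element that CLOCK and its partner bind. Capitals mark them.
Ciart (chr2:186112247-186112496, minus strand): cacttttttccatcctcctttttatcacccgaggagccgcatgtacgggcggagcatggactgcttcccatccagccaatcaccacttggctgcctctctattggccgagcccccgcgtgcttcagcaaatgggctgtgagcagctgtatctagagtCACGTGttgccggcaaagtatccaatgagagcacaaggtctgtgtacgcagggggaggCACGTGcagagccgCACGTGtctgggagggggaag

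The E-box was present in 7.88% of the 11445 promoters, and 14 of them held 3 or more copies. It was present in 9.91% of promoters of genes called higher and in 6.67% of those called lower. Of the core clock genes 1 of 11 with a promoter held a match, and of clock output genes 3 of 10.

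In cyclic AMP signalling 9 of 31 (29.0%, beside 25.8% of genes of similar level) were called higher and 5 of 31 (16.1%, beside 21.7% of genes of similar level) lower, with a median log2 fold change of 0.16 that became -0.10 with library size alone. Nr4a3, an orphan nuclear receptor, stood at 20.4, 9.22 and 9.95 CPM in control and 68.5, 98.6 and 49.6 CPM in model (log2 fold change 2.45, SE 0.50, adjusted p = 0.00551) and Nr4a2, its relative, at 18, 11 and 9.39 CPM in control and 31.4, 94.6 and 39.8 CPM in model (log2 fold change 2.11, SE 0.66, adjusted p = 0.0300). The repressor gene Crem was 2.63-fold higher, the phosphodiesterases Pde4d and Pde3b, which break down cyclic AMP, 4.28-fold and 5.23-fold, and Prkar2b, a regulatory subunit of protein kinase A, 2.48-fold. The cyclase gene Adcy4 was 1.97-fold lower and Creb1, the activator that CREM antagonises, 2.10-fold lower. Pde3b and Prkar2b are abundant in fat cells, whose summed genes were also higher, and that part was not tested. A single omitted library took the lower count of the cyclic AMP list from 5 to between 2 and 3 without control replicates 2 or 3 or model replicates 2 or 3. Calls that did not survive the loss of 1 library were those of Nr4a2 without control replicates 2 or 3 or model replicate 2 (adjusted p up to 0.120). Leaving out 1 library moved the log2 fold change of Nr4a2 from 2.11 to 1.48 without model replicate 2.

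Among genes of fasting, insulin and FoxO signalling 15 of 32 (46.9%, beside 38.4% of genes of similar level) were called higher and 1 lower, with a median log2 fold change of 0.56. Foxo3 and Foxo1, the transcription factors that insulin restrains, stood at 10.5, 8.90 and 13.4 CPM in control and 39.9, 31.0 and 36.5 CPM in model (log2 fold change 1.71, SE 0.21, adjusted p = 0.000651) and at 49.1, 41.7 and 51.7 CPM in control and 98.5, 140 and 117 CPM in model (log2 fold change 1.32, SE 0.18, adjusted p = 0.00107). Every model library lay above every control library in both. The insulin receptor gene Insr was 2.13-fold higher, Pik3ip1, an inhibitor of the insulin-regulated kinase PI3K, 2.16-fold, the translation repressor gene Eif4ebp2 2.23-fold, and the arrestins Txnip and Arrdc4, which limit glucose uptake, 1.76-fold and 2.65-fold. Bcl6, a transcriptional repressor that FoxO factors induce, was 1.92-fold higher, and Igfbp3 and Igfbp4, which bind insulin-like growth factors, 2.27-fold and 1.44-fold. Leaving out single libraries ended the call of Pik3ip1 without control replicates 1 or 2 (adjusted p up to 0.0602).

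In the list of p53 targets and growth arrest 17 of 34 (50%, beside 30.9% of genes of similar level) were called higher, 3 lower and 14 were not called, with a median log2 fold change of 0.69. Tp53inp1, an antiproliferative p53 target, was named for its small p and stood at 27.1, 26.3 and 24.8 CPM in control and 107, 116 and 99.9 CPM in model (log2 fold change 2.05, SE 0.10, adjusted p = 6.06e-05). The 3 libraries of each group lay within a narrow range. Cdkn2c, a cyclin-dependent kinase inhibitor, stood at 43.7, 50.2 and 39.0 CPM in control and 127, 201 and 178 CPM in model (log2 fold change 1.93, SE 0.26, adjusted p = 0.000900). Pmaip1, a cell death gene known as Noxa, was 4.36-fold higher, Phlda3, an inhibitor of the kinase Akt, 2.29-fold, Tob1 and Btg1, antiproliferative factors, 2.97-fold and 1.87-fold, Sesn2, a sestrin that restrains the growth kinase mTORC1, 2.60-fold, and Mdm2, the ligase that limits p53, 2.16-fold. The members called lower were Polk, a translesion DNA polymerase, at 3.21-fold, Fas, a death receptor, at 2.49-fold, and Xpc, a sensor of DNA damage, at 1.78-fold. Among the dual specificity phosphatases, which switch off MAP kinases, 7 of 20 (35.0%, beside 11.1% of genes of similar level) were called higher and 3 lower. Dusp4, Dusp10 and Dusp2 were 4.43-fold, 3.99-fold and 3.97-fold higher. Of the immediate early genes that MAP kinases induce, 4 of 24 (16.7%, beside 30.9% of genes of similar level) were called higher and 1 lower. Fos stood at 91.7, 49.9 and 54.9 CPM in control and 54.7, 32.3 and 25.8 CPM in model, with overlapping groups (adjusted p = 0.379). Omission of 1 library took the higher count of the immediate early list from 4 to between 1 and 2 without control replicates 1, 2 or 3 or model replicates 2 or 3.

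In the list of mitosis and spindle genes 38 of 43 (88.4%, beside 28.1% of genes of similar level) were called lower, with a median log2 fold change of -1.06. EdgeR called 0 higher (0 at an unadjusted p under 0.05, 0 with DESeq2 and 0 with limma-voom). Mki67, the proliferation antigen, stood at 59.7, 61.4 and 56.3 CPM in control and 25.1, 21.1 and 28.6 CPM in model (log2 fold change -1.25, SE 0.23, adjusted p = 0.00325). Cenpf, a kinetochore protein, stood at 16.5, 17.3 and 19.8 CPM in control and 5.69, 5.02 and 7.44 CPM in model (log2 fold change -1.56, SE 0.25, adjusted p = 0.00194). Nusap1, a spindle protein, stood at 20.1, 16.9 and 18.4 CPM in control and 7.80, 6.54 and 8.51 CPM in model (log2 fold change -1.27, SE 0.22, adjusted p = 0.00282). The groups were well apart in all 3 genes and replicates of a group were close. The motors Kif2c and Kif20a were 2.80-fold and 2.56-fold lower, the kinase gene Aurkb 2.2-fold, cyclin B1 (Ccnb1) 2.13-fold and Top2a, a topoisomerase, 1.66-fold. DNA replication and repair was lower too. In that list 27 of 53 (50.9%, beside 28.1% of genes of similar level) were called lower and 3 higher, with a median log2 fold change of -0.63, and the count of lower calls fell to between 13 and 16 without control replicates 2 or 3 or model replicates 1 or 2. Brca1 stood at 6.53, 6.36 and 6.10 CPM in control and 1.23, 1.08 and 1.75 CPM in model (log2 fold change -2.22, SE 0.29, adjusted p = 0.000867), Rrm2, a subunit of ribonucleotide reductase, was 2.48-fold lower and E2f1, the factor that drives these genes, 2.14-fold. Pold1, a DNA polymerase, was 2.29-fold lower, and Gins2 and Gins3, of the replicative helicase, 1.86-fold and 2.31-fold. Mcm10, Orc2 and Rfc4, the 3 members called higher, were 2.18-fold, 1.42-fold and 1.40-fold higher. The summed level of the mitosis list was 717, 716 and 704 CPM in control and 371, 324 and 396 CPM in model. Calls were lost when single libraries were left out for Mcm10 without control replicates 1, 2 or 3 or model replicate 2 (adjusted p up to 0.0773) and Rfc4 without control replicates 1, 2 or 3 or model replicates 1 or 3 (adjusted p up to 0.0887).

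Cdk1, the kinase that drives entry into mitosis, stood at 18.1, 21.4 and 20.3 CPM in control and 10.1, 9.86 and 11.4 CPM in model (log2 fold change -0.93, SE 0.17, adjusted p = 0.00339), lower in every model library. Its promoter is shown with a cell cycle homology element, TTTGAAA, in capitals, the element through which the DREAM repressor complex holds such genes down outside the cycle.
Cdk1 (chr20:19265043-19265292, plus strand): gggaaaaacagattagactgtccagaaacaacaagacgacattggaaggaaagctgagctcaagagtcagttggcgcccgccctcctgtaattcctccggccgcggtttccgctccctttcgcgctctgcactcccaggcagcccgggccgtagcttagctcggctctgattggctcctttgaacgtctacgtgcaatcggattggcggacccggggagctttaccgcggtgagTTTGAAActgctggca

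This element was present in 3.81% of the 11445 promoters, in 3.30% of those of genes called higher and 4.61% of those called lower. Of 39 promoters of the mitosis list 10 held it, 9 of them among the 35 members called lower and 1 among the 4 not called.

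Signals of inflammation did not move together. In the IL-6 family, whose receptors act through STAT3, 10 of 24 (41.7%, beside 18.6% of genes of similar level) were called higher, with a median log2 fold change of 0.47, and the count fell to between 5 and 6 without control replicates 1 or 2 or model replicates 1 or 3. EdgeR called 0 lower (0 at an unadjusted p under 0.05, 0 with DESeq2 and 0 with limma-voom). Socs3, the feedback inhibitor of STAT3, stood at 17.9, 13.3 and 22.9 CPM in control and 104, 50.3 and 70.6 CPM in model (log2 fold change 2.06, SE 0.61, adjusted p = 0.0257). Il6r, the receptor for interleukin-6, stood at 31.2, 38.4 and 37.4 CPM in control and 105, 106 and 109 CPM in model (log2 fold change 1.58, SE 0.14, adjusted p = 0.000230). Every model library lay above every control library in both. Lifr, the receptor for leukaemia inhibitory factor, was 1.72-fold higher, and Socs4 and Socs6, suppressors of cytokine and growth factor signalling, 2.79-fold and 2.33-fold. In the axis of interleukin-1, TNF and Toll-like receptors 12 of 41 (29.3%, beside 16.7% of genes of similar level) were called higher and 10 of 41 (24.4%, beside 27.4% of genes of similar level) lower. Adaptors of signalling were among those that rose. Irak2, a kinase of that axis, stood at 22.1, 18.9 and 25.5 CPM in control and 116, 135 and 79.2 CPM in model (log2 fold change 2.31, SE 0.23, adjusted p = 0.000358) and Traf6, the ligase that relays it, at 5.89, 4.87 and 5.47 CPM in control and 22.8, 29.4 and 30.4 CPM in model (log2 fold change 2.35, SE 0.39, adjusted p = 0.00213). Myd88, the shared adaptor, was 2.06-fold higher, Tnfrsf1b, a TNF receptor, 2.82-fold, and Irak3, an inhibitor of the axis, 1.57-fold. Sensors and a cytokine were among those that fell. Tlr5, the flagellin receptor, was 3.27-fold lower, Tlr3, the receptor for double-stranded RNA, 1.52-fold, Casp1, the inflammasome protease, 1.53-fold, Il18, a cytokine that it matures, 3.32-fold, and Traf1, a target of NF-kappaB, 3.47-fold. Loss of a single library took the higher count of the interleukin-1, TNF and Toll-like receptor list from 12 to 7 without control replicate 2 and the lower count of the interleukin-1, TNF and Toll-like receptor list from 10 to between 5 and 6 without control replicates 2 or 3 or model replicate 2. With 1 library left out, edgeR no longer called Socs3 without control replicates 1, 2 or 3 or model replicates 1 or 3 (adjusted p up to 0.0856).

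Genes of interferon and antigen presentation were lower more often than higher. In the interferon response 16 of 46 (34.8%, beside 23.3% of genes of similar level) were called lower and 3 higher, with a median log2 fold change of -0.35, and the count of lower calls fell to 9 without control replicates 2 or 3. Irgm, a GTPase that acts against microbes inside cells, was 3.45-fold lower, Parp14, an ADP-ribosyltransferase, 1.94-fold, Irf3, a factor that induces interferon, 1.67-fold, and Ddx58, the RNA sensor RIG-I, 1.85-fold. Isg20, a nuclease, and Trim25, a ligase that activates RIG-I, were 2.02-fold and 1.37-fold higher. In the rat MHC and antigen presentation list 14 of 39 (35.9%, beside 21.7% of genes of similar level) were called lower, and the count fell to between 6 and 7 without control replicates 2 or 3 or model replicates 1 or 2. EdgeR called 0 higher (0 at an unadjusted p under 0.05, 0 with DESeq2 and 0 with limma-voom). Tap2, of the peptide transporter, was 1.80-fold lower, and the class I genes RT1-CE2, RT1-CE7 and RT1-N2 5.0-fold, 3.54-fold and 3.33-fold. The class I gene RT1-A2 stood at 735, 1122 and 1392 CPM in control and 617, 549.9 and 682 CPM in model (log2 fold change -0.81, SE 0.23, adjusted p = 0.0192). Control replicate 1 was the lowest control library in the summed list, 4810, 7706 and 7934 CPM against 4850, 4957 and 6024 CPM in model, and that sum overlapped between the groups. RT1 genes are near-identical copies of each other, so counts for a single one are uncertain. Among chemokines and their receptors 11 of 40 (27.5%, beside 26.6% of genes of similar level) were called lower, a share like that of other genes, and 5 higher. Ccl5, which attracts T cells, stood at 8.16, 27.5 and 19.1 CPM in control and 1.93, 3.23 and 5.32 CPM in model (log2 fold change -2.38, SE 0.59, adjusted p = 0.0115). Cx3cl1, a chemokine anchored to endothelium, stood at 31.4, 40.8 and 31.7 CPM in control and 14.5, 8.60 and 15.3 CPM in model (log2 fold change -1.44, SE 0.30, adjusted p = 0.00559). Ackr4, a scavenger that lymphatic endothelium uses to clear CCL21, stood at 303, 447 and 509 CPM in control and 189, 113 and 237 CPM in model (log2 fold change -1.22, SE 0.31, adjusted p = 0.0130). The scavenger Ackr3 was 2.34-fold higher, as was the chemokine Cxcl14 at 2.66-fold. The receptors Ccr1, Cxcr3 and Xcr1, of monocytes, T cells and dendritic cells, were 3.41-fold, 4.25-fold and 10.4-fold lower. The part of immune cell content in these receptors was not tested. A single omitted library took the higher count of the chemokine list from 5 to 3 without control replicates 1, 2 or 3. Calls that did not survive the loss of 1 library were those of RT1-A2 without control replicates 2 or 3 or model replicate 2 (adjusted p up to 0.0667).

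Igtp, an interferon-induced GTPase, stood at 32.5, 65.4 and 49.2 CPM in control and 13.7, 23.0 and 21.6 CPM in model (log2 fold change -1.34, SE 0.27, adjusted p = 0.00477), with every model library below every control library. Its promoter is shown with an interferon-type element in capitals, a GAAA that recurs after 2 free bases, searched on both strands.
Igtp (chr10:42874797-42875046, plus strand): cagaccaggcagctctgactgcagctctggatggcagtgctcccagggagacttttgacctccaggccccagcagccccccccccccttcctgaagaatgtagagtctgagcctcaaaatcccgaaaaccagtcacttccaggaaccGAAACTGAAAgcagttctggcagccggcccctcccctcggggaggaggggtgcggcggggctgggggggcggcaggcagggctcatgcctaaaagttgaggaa

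Of all promoters 2.66% held this element, against 18 of 33 in the interferon list. Within that list it was present in 6 of 10 promoters of genes called lower, in 2 of 3 of genes called higher and in 10 of 20 of genes not called.

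Of the antioxidant genes 21 of 34 (61.8%, beside 38.4% of genes of similar level) were called higher and 1 lower, with a median log2 fold change of 0.53. Srxn1, sulfiredoxin, which repairs oxidised peroxiredoxins, stood at 16.5, 11.4 and 13.2 CPM in control and 55.1, 96.1 and 48.5 CPM in model (log2 fold change 2.28, SE 0.34, adjusted p = 0.00143). Sod2, the mitochondrial superoxide dismutase, stood at 181, 178 and 139.5 CPM in control and 401, 581 and 404 CPM in model (log2 fold change 1.48, SE 0.22, adjusted p = 0.00152). Prdx6 and Prdx5, peroxiredoxins, were 2.28-fold and 2.01-fold higher, Cat, catalase, 1.99-fold, Sod1 2.01-fold, Hmox1, haem oxygenase, 2.47-fold, and Gclc, which starts glutathione synthesis, 1.84-fold. Keap1, which restrains the NRF2 factor, was 1.39-fold lower. Both ferritin chains rose. Their list of iron and haem genes had 7 of 24 (29.2%, beside 30.9% of genes of similar level) called higher, a share near the background. In it 1 of 24 (4.17%, beside 16.5%) was called lower. Ftl1, ferritin light chain, stood at 639, 659 and 681 CPM in control and 1489, 1542 and 1201 CPM in model (log2 fold change 1.10, SE 0.13, adjusted p = 0.000630) and Fth1, its heavy chain, was 1.54-fold higher. Steap4, a metalloreductase, was 1.97-fold and Slc11a2, an iron transporter, 1.77-fold higher. Many cell types express these genes, and not only the fat cell sum but also that of macrophages was higher in every model library, with 811, 1121 and 991 CPM in control and 1257, 1246 and 1580 CPM in model for 18 macrophage genes. Their part was not tested.

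Of the heat shock genes 7 of 30 (23.3%, beside 30.9% of genes of similar level) were called higher and 1 lower, with a median log2 fold change of 0.08 that became -0.20 with library size alone. Hspa9, a chaperone of mitochondria, was 2.43-fold higher, Bag3, a cochaperone, 2.18-fold and Dnajb6, a suppressor of aggregation, 1.59-fold. In the list of endoplasmic reticulum and integrated stress response 9 of 28 (32.1%, beside 38.4% of genes of similar level) were called higher and 4 of 28 (14.3%, beside 12.5% of genes of similar level) lower. Neither list held a larger share of higher calls than genes of similar level. Atf4, the effector of the integrated stress response, stood at 222, 193 and 214 CPM in control and 382, 408 and 323 CPM in model (log2 fold change 0.82, SE 0.19, adjusted p = 0.00831), and its target Asns, asparagine synthetase, was 2.26-fold higher. Ddit3, another target, known as CHOP, stood at 24.4, 22.1 and 24.5 CPM in control and 13.7, 11.7 and 12.8 CPM in model (log2 fold change -0.89, SE 0.16, adjusted p = 0.00339), so these targets moved in opposite directions. Slc7a5, a transporter of large amino acids and also an ATF4 target, stood at 11.1, 12.5 and 13.0 CPM in control and 51.2, 45.3 and 48.2 CPM in model (log2 fold change 1.99, SE 0.19, adjusted p = 0.000358), and its partner Slc3a2 was 1.75-fold higher. The transporters Slc7a1, for basic amino acids, and Slc1a3, for glutamate, were 2.26-fold and 2.37-fold higher. Amino acid transporters as a list went both ways. Called higher were 8 of 29 (27.6%, beside 16.7% of genes of similar level) and lower 5 of 29 (17.2%, beside 27.4%). With library size alone 7 were called higher and 7 lower. Leaving out 1 library gave 5 to 10 higher and 1 to 5 lower. Omission of 1 library took the higher count of the heat shock list from 7 to 4 without control replicate 2 and the lower count of the endoplasmic reticulum stress list from 4 to between 1 and 2 without control replicates 1, 2 or 3 or model replicates 1, 2 or 3.

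Lists of protein production and breakdown differed in how often their members were called higher. In ribosome biogenesis 27 of 50 (54.0%, beside 25.8% of genes of similar level) were called higher and 3 lower, with a median log2 fold change of 0.41. Wdr43, a factor of the nucleolus, stood at 43.8, 38.6 and 42.5 CPM in control and 102, 105 and 98.7 CPM in model (log2 fold change 1.29, SE 0.09, adjusted p = 0.000177). Gnl3, nucleostemin, was 2.24-fold higher, Ncl, nucleolin, 1.67-fold, Npm1, nucleophosmin, 1.45-fold, and Rrn3, an initiation factor of RNA polymerase I, 1.75-fold. Polr1a, the large subunit of that polymerase, was 1.82-fold lower. The aminoacyl tRNA synthetases, which load tRNA, were called higher in 6 of 23 (26.1%, beside 30.9% of genes of similar level) and lower in 2, a higher share under that of genes of similar level. Among translation factors 43 of 63 (68.3%, beside 38.4% of genes of similar level) were called higher and 3 lower, with a median of 0.48. Eef1a1, which brings tRNA to the ribosome, rose from 5833 ± 559 CPM in control to 9026 ± 127 CPM in model (SD, n = 3), Eef2 was 1.51-fold higher, Eif4a1, a helicase, 1.59-fold, and Eif4g2, a scaffold, 1.87-fold. Of the proteasome genes 33 of 47 (70.2%, beside 38.4% of genes of similar level) were called higher and 4 lower, with a median of 0.44. Psma6, of the core, and Psmc1 and Psmd8, of the cap, were 2.15-fold, 1.89-fold and 1.92-fold higher. The ribosome biogenesis, translation factor and proteasome lists kept a positive median with library size alone, at 0.13, 0.20 and 0.16, but then 14, 19 and 10 members were called higher. Loss of a single library took the lower count of the proteasome list from 4 to between 1 and 2 without control replicates 1, 2 or 3 or model replicates 1, 2 or 3.

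Splicing factors went both ways. In their list 50 of 113 (44.2%, beside 30.9% of genes of similar level) were called higher and 19 of 113 (16.8%, beside 16.5% of genes of similar level) lower, with a median log2 fold change of 0.23 that became -0.04 with library size alone. Among those called higher were the RNA packaging proteins Hnrnpl, Hnrnpa1 and Hnrnpk, at 1.87-fold, 1.87-fold and 1.45-fold, and the core factors U2af1 and Sf3b1 at 2.09-fold and 1.54-fold. Among those called lower were the kinases Clk1 and Clk3, which phosphorylate SR proteins, at 1.61-fold and 1.66-fold. SR proteins themselves were on both sides, with Srsf3, Srsf4 and Srsf5 at 1.68-fold, 1.36-fold and 1.65-fold higher and Srsf2 and Srsf6 at 1.29-fold and 1.30-fold lower. Rbm5 and Rbm10, related splicing regulators, were 2.17-fold and 1.96-fold lower. Cold induces the RNA binding proteins Rbm3 and Cirbp in many cells. Rbm3 stood at 126, 169 and 167 CPM in control and 309, 305 and 347 CPM in model (log2 fold change 1.06, SE 0.14, adjusted p = 0.000817), above control in every model library, whereas Cirbp stood at 87.1, 122 and 108 CPM in control and 88.2, 75.6 and 92.5 CPM in model (adjusted p = 0.134). These genes were picked out after their values were seen.

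Regulators of chromatin and of body plan were lower more often than higher. Of the chromatin genes 29 of 104 (27.9%, beside 16.5% of genes of similar level) were called lower and 17 of 104 (16.3%, beside 30.9% of genes of similar level) higher. Kmt2a, a histone methyltransferase that maintains Hox genes, stood at 108, 96.9 and 108 CPM in control and 26.8, 17.9 and 29.5 CPM in model (log2 fold change -2.07, SE 0.19, adjusted p = 0.000248). Dnmt1, the maintenance DNA methyltransferase, stood at 51.7, 55.3 and 58.0 CPM in control and 17.2, 13.5 and 24.6 CPM in model (log2 fold change -1.57, SE 0.19, adjusted p = 0.000679). Ezh1 and Kmt2d, histone methyltransferases, were 2.71-fold and 2.00-fold lower, and Smarca5, a remodeller, and Kat7, an acetyltransferase, 1.72-fold and 1.90-fold higher. Of the Hox genes, which hold positional identity, 16 of 28 (57.1%, beside 26.6% of genes of similar level) were called lower, with a median log2 fold change of -0.93, and the count fell to 10 without control replicate 2 or model replicate 3. EdgeR called 0 higher (1 at an unadjusted p under 0.05, 1 with DESeq2 and 1 with limma-voom). Hoxd3 stood at 5.89, 7.73 and 8.41 CPM in control and 0.526, 0.358 and 0.380 CPM in model (log2 fold change -4.10, SE 0.67, adjusted p = 0.00203) and Hoxd8 at 54.5, 52.1 and 61.1 CPM in control and 28.4, 29.2 and 26.7 CPM in model (log2 fold change -0.99, SE 0.13, adjusted p = 0.000770). Genes of all 4 clusters were among those that fell, with Hoxa3 at 2.44-fold, Hoxb2 at 2.34-fold and Hoxc6 at 3.23-fold lower. In the large family of zinc finger factors whose symbols begin with Zfp 84 of 251 (33.5%, beside 28.1% of genes of similar level) were called lower and 38 of 251 (15.1%, beside 11.1% of genes of similar level) higher, shares near the background.

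Single genes that set the tone of the vessel wall were called in both directions. Gja5, connexin 40, a gap junction protein of endothelium (gene 50563, chromosome 2, 199162745 to 199184942 on the + strand of Rnor_6.0), stood at 59.6, 24.7 and 40.6 CPM in control and 2.45, 1.70 and 6.00 CPM in model (log2 fold change -3.60, SE 0.55, adjusted p = 0.00164). Gja4, connexin 37, its partner, stood at 85.3, 94.3 and 140.4 CPM in control and 53.2, 33.7 and 51.9 CPM in model (log2 fold change -1.21, SE 0.26, adjusted p = 0.00642). Gja1 and Gjc1, connexins 43 and 45, were 1.46-fold and 1.87-fold higher. In nitric oxide and cyclic GMP signalling, the relaxing pathway of vascular muscle, 6 of 20 (30.0%, beside 27.4% of genes of similar level) were called lower, a share near the background, and edgeR called 0 higher (0 at an unadjusted p under 0.05, 0 with DESeq2 and 0 with limma-voom). Gucy1a3, a subunit of the nitric oxide receptor, stood at 200.5, 236 and 216 CPM in control and 96.2, 47.0 and 76.3 CPM in model (log2 fold change -1.57, SE 0.22, adjusted p = 0.00109), and the natriuretic peptide receptor Npr1 was 1.71-fold lower. The synthase gene Nos3 stood at 198, 171 and 215 CPM in control and 236, 153 and 158 CPM in model and overlapped between the groups (adjusted p = 0.781). Smooth muscle genes were lower in sum, with 12940, 11960 and 16710 CPM in control and 11540, 7894 and 9425 CPM in model for 30 contractile genes, and the part of muscle content in these receptors was not tested. Of the vasoactive peptide and amine receptor list 10 of 33 (30.3%, beside 28.1% of genes of similar level) were called lower. In the same list 5 of 33 (15.2%, beside 11.1% of genes of similar level) were called higher. It also holds genes that are not receptors, such as Edn1, Agt and Rgs3. Of the prostaglandin list 2 of 22 (9.09%, beside 27.4% of genes of similar level) were called lower and 3 of 22 (13.6%, beside 16.7%) higher. Both lists too were near the shares of similar genes or under them. Edn1, the constrictor peptide endothelin, stood at 19.8, 17.5 and 22.6 CPM in control and 6.83, 6.54 and 6.23 CPM in model (log2 fold change -1.61, SE 0.24, adjusted p = 0.00133). Agt, angiotensinogen, which fat cells make, stood at 136, 227 and 236 CPM in control and 964, 1226 and 907 CPM in model (log2 fold change 2.37, SE 0.29, adjusted p = 0.000652). Rgs4 and Rgs3, which shorten receptor signals, were 2.71-fold and 2.17-fold lower. In prostaglandin signalling Tbxa2r, the thromboxane receptor, was 2.96-fold lower and Ptger3, a receptor for prostaglandin E2, 2.19-fold higher. A single omitted library took the lower count of the vasoactive receptor list from 10 to 6 without model replicates 2 or 3 and the higher count of the vasoactive receptor list from 5 to 3 without control replicate 2 or model replicates 1 or 2. Leaving out single libraries ended the call of Gjc1 without control replicate 2 (adjusted p = 0.0524). Leaving out 1 library moved the log2 fold change of Gja5 from -3.60 to -4.31 without model replicate 3.

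Other endothelial genes went both ways. Of the lymphatic endothelial list 3 of 17 (17.6%, beside 30.9% of genes of similar level) were called higher and 4 of 17 (23.5%, beside 16.5% of genes of similar level) lower. The members called higher include Marco, which was highest in model replicate 3 and is given below with markers of lymph nodes. Of the blood endothelial list 3 of 26 (11.5%, beside 51.0% of genes of similar level) were called higher and 4 of 26 (15.4%, beside 8.12% of genes of similar level) lower, so in both lists higher calls were a smaller share, and lower calls a larger one, than among genes of similar level. Foxc2, a factor of lymphatic valves, was 2.01-fold lower, Stab1, a scavenger receptor, 1.89-fold, Apln, the peptide apelin, 2.02-fold, and Nr2f2, a venous and lymphatic factor, 1.69-fold. Among growth factors Vegfb and Figf were 1.99-fold and 2.12-fold higher, and Vegfc, the main lymphatic growth factor, and Angpt2, which acts on lymphatic junctions, 1.77-fold and 1.53-fold lower. Calcrl, the receptor for adrenomedullin, stood at 132, 172 and 167 CPM in control and 85.7, 54.6 and 82.6 CPM in model (log2 fold change -1.08, SE 0.24, adjusted p = 0.00710) and its coreceptor Ramp3 was 2.82-fold higher. Plat, tissue plasminogen activator, was 3.18-fold higher and F3, tissue factor, 1.89-fold lower. Tjp1, which anchors tight junctions, and Cdh2, N-cadherin, were 1.84-fold and 1.77-fold lower. Gpihbp1, which carries lipoprotein lipase onto capillary walls, was 2.32-fold higher. Calls were lost when single libraries were left out for Foxc2 without control replicate 3 (adjusted p = 0.0663), Vegfc without control replicates 1 or 3 (adjusted p up to 0.0603) and Ramp3 without control replicate 2 or model replicate 1 (adjusted p up to 0.0518).

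Ion channel lists were split much like genes of their level. Of the potassium channel genes 16 of 50 (32.0%, beside 25.3% of genes of similar level) were called lower and 3 of 50 (6.00%, beside 7.58% of genes of similar level) higher, and the count of lower calls fell to between 9 and 10 without control replicate 2 or model replicates 1, 2 or 3. Kcnma1 and Kcnmb1, the pore and the muscle subunit of the large conductance channel, were 2.87-fold and 2.17-fold lower and Kcnk3, an acid-sensitive leak channel, 2.54-fold higher. Of the calcium, sodium, chloride and TRP channel genes 23 of 82 (28%, beside 28.1% of genes of similar level) were called lower, as often as other genes, and 5 of 82 (6.10%, beside 11.1% of genes of similar level) higher, and the count of lower calls fell to between 11 and 15 without control replicate 1 or model replicates 2 or 3. Cacna1h, a T-type calcium channel of pacemaking cells, was 2.87-fold lower, and Cacnb3, a subunit of L-type channels, 1.95-fold. Trpv2 was 3.24-fold lower, while the mechanosensitive channels Piezo1 and Trpv4 were 1.60-fold and 2.06-fold higher. Part of the channel lists is also expressed by nerve. In the nerve and glia list 11 of 21 (52.4%, beside 27.4% of genes of similar level) were called lower and 2 higher (with limma-voom 7 lower), with a median log2 fold change of -1.76, although the summed level, 1019, 1120 and 576 CPM in control and 548, 864 and 590.4 CPM in model, overlapped. The part of nerve content was not tested. Omission of 1 library took the higher count of the calcium, sodium, chloride and TRP channel list from 5 to 3 without control replicates 2 or 3 or model replicate 2 and the lower count of the nerve and glia list from 11 to between 6 and 7 without control replicate 2 or model replicates 1 or 3.

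Lists of developmental signalling differed from each other. Among Hedgehog and Hippo genes 11 of 27 (40.7%, beside 23.3% of genes of similar level) were called lower and 3 higher, with a median log2 fold change of -0.57. Gli1, Smo and Cdon, the effector, transducer and coreceptor of Hedgehog, were 2.19-fold, 1.89-fold and 1.94-fold lower, as was the ligand gene Dhh at 2.61-fold. Yap1, the Hippo effector, was 1.55-fold lower, while its DNA-binding partners split, with Tead2 at 5.0-fold lower and Tead1 at 1.86-fold higher. Of the guidance genes 20 of 59 (33.9%, beside 23.3% of genes of similar level) were called lower and 3 higher. Plxnd1, a semaphorin receptor of endothelium, stood at 539.8, 448 and 504 CPM in control and 236, 202 and 246 CPM in model (log2 fold change -1.13, SE 0.26, adjusted p = 0.00880), Sema3g, a semaphorin of arterial endothelium, was 2.00-fold lower, and Nrp1, a coreceptor, 1.51-fold. For the BMP and TGF-beta family 13 of 48 (27.1%, beside 25.8% of genes of similar level) were called higher. Lower calls were 11 of 48 (22.9%, beside 21.7%), and both shares were near the background. Acvrl1, the endothelial BMP receptor, was 1.97-fold lower and Id3, a target, 1.73-fold, while Smad3 and Tgfb2, of the TGF-beta arm, were 1.71-fold and 1.76-fold higher. In the Wnt list 6 of 49 (12.2%, beside 11.1% of genes of similar level) were called higher and 11 of 49 (22.4%, beside 28.1% of genes of similar level) lower, and in the Notch list 2 of 23 (8.70%, beside 30.9% of genes of similar level) higher and 4 of 23 (17.4%, beside 16.5% of genes of similar level) lower. The receptor gene Fzd4 was 2.23-fold higher, and Fzd1, Fzd6 and the ligand gene Wnt5a were 2.2-fold, 1.99-fold and 1.94-fold lower. Loss of a single library took the lower count of the Wnt list from 11 to 7 without control replicate 1 or model replicate 3 and the lower count of the Notch pathway list from 4 to between 1 and 2 without control replicates 1 or 3 or model replicates 1, 2 or 3.

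Of the collagen genes 14 of 39 (35.9%, beside 21.7% of genes of similar level) were called lower and 3 higher, with a median log2 fold change of -0.41, and the count of lower calls fell to between 7 and 9 without control replicates 1 or 2 or model replicate 2. Col4a5 and Col4a6, chains of a basement membrane network, were 1.83-fold and 2.2-fold lower, and Col16a1 and Col6a6 1.90-fold and 1.77-fold. Timp3, a protease inhibitor of the matrix, was 1.82-fold higher, and Mmp15, a membrane protease, 4.18-fold lower. The list of matrix proteases and inhibitors had 8 of 49 (16.3%, beside 18.6% of genes of similar level) called higher and 9 of 49 (18.4%, beside 23.3%) lower. Leaving out 1 library gave 5 to 8 higher. Itgb8, an integrin chain that activates TGF-beta, was 3.65-fold lower. Of the cilium genes 32 of 87 (36.8%, beside 27.4% of genes of similar level) were called lower and 7 higher, with a median of -0.40. Ift140 and Ift172, of intraflagellar transport, were 1.92-fold and 1.75-fold lower, and Cc2d2a and Tmem67, of the transition zone, 2.38-fold and 1.96-fold. A single omitted library took the higher count of the cilium list from 7 to between 3 and 4 without control replicates 2 or 3. With 1 library left out, edgeR no longer called Ift140 without model replicate 1 (adjusted p = 0.0502) and Ift172 without model replicates 1 or 3 (adjusted p up to 0.0565).

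**Figure D3:**
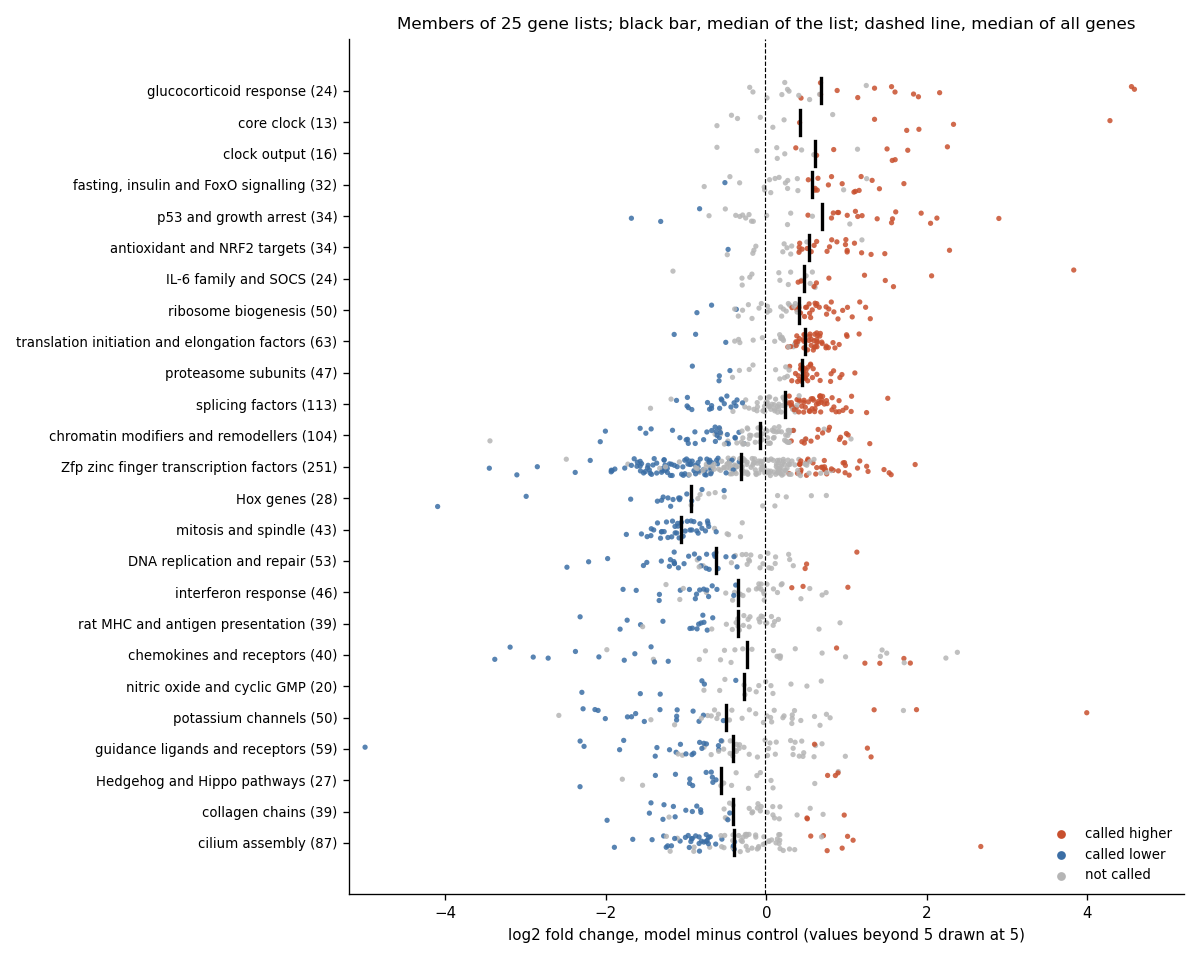
Fitted log2 fold change, model minus control, of every tested member of 25 gene lists, with called members in colour, the median of each list as a black bar and the median of all genes as a dashed line; Robo3 at -6.79 is drawn at the edge. The bars of the glucocorticoid (0.67) and p53 (0.69) lists lie to the right and those of the mitosis (-1.06) and Hox (-0.93) lists farthest to the left.

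The genes with the largest rises among called genes with full separation included Tchh, trichohyalin, a structural protein best known from hair follicles, which stood at 1.85, 1.36 and 2.73 CPM in control and 36.2, 85.8 and 31.7 CPM in model (log2 fold change 4.69, SE 0.56, adjusted p = 0.000641). Sphk1, the kinase that makes sphingosine 1-phosphate, a lipid that guides lymphocytes and seals vessels, stood at 3.05, 2.27 and 2.03 CPM in control and 35.8, 29.6 and 27.0 CPM in model (log2 fold change 3.65, SE 0.65, adjusted p = 0.00303). Dhrs9, a retinol and steroid dehydrogenase, stood at 2.84, 2.34 and 0.981 CPM in control and 23.6, 41.3 and 10.9 CPM in model (log2 fold change 3.61, SE 0.62, adjusted p = 0.00246). The groups were several-fold apart in each. Cwc25, a spliceosome factor, was 11.1-fold higher, Trim10, a ubiquitin ligase, 12.5-fold, and Coq10b, which binds coenzyme Q in mitochondria, 8.72-fold, and in Cwc25 and Coq10b model replicate 2 was the highest library. Lax1 and Lef1, genes of lymphocyte signalling, stood at 1.63, 2.14 and 2.31 CPM in control and 2.37, 17.0 and 46.0 CPM in model and at 1.63, 2.66 and 3.86 CPM in control and 7.80, 11.6 and 45.7 CPM in model. They were highest in model replicate 3, the library with the highest lymphocyte and lymph node sums. Calls that did not survive the loss of 1 library were those of Lax1 without control replicates 1, 2 or 3 or model replicates 2 or 3 (adjusted p up to 0.105) and Lef1 without control replicates 1 or 2 or model replicate 3 (adjusted p up to 0.0647). Leaving out 1 library moved the log2 fold change of Tchh from 4.69 to 4.10 without model replicate 2, Cwc25 from 3.48 to 2.79 without model replicate 2, Lax1 from 3.42 to 2.25 without model replicate 3 and Lef1 from 3.00 to 1.84 without model replicate 3.

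The largest falls among called genes whose groups did not overlap included Fam111a, a protease that limits viral replication, at 34.0, 67.1 and 148 CPM in control and 5.52, 4.30 and 4.86 CPM in model (log2 fold change -4.08, SE 1.10, adjusted p = 0.0180), and Dstnl1, a destrin-like gene, at 148, 13.5 and 244 CPM in control and 13.4, 6.09 and 8.05 CPM in model (log2 fold change -3.88, SE 0.87, adjusted p = 0.00894). The control libraries of both differed several-fold among themselves. Sostdc1, an antagonist of BMP and Wnt, was 6.58-fold lower, Tppp, which stabilises microtubules, 5.99-fold, Exoc3l2, an exocyst-like gene, 6.56-fold, Misp, of the mitotic spindle, 7.15-fold, and Ccdc62 6.93-fold. Disp2, which resembles a releaser of Hedgehog, was 7.66-fold lower. Wbp11 and Wbp11l1, whose names mark them as near copies that could share reads, went opposite ways. Wbp11 stood at 46.1, 42.1 and 47.0 CPM in control and 0, 0.0896 and 5.92 CPM in model and Wbp11l1 at 6.96, 8.51 and 6.80 CPM in control and 99.4, 122 and 99.8 CPM in model. Their sum went from 52.5 ± 1.64 CPM to 109 ± 11.6 CPM (SD, n = 3), a ratio of 2.08, so the log2 fold changes of -4.41 and 3.85 for the single genes are uncertain. Leaving out single libraries ended the call of Fam111a without control replicate 3 or model replicates 1, 2 or 3 (adjusted p up to 0.0610) and Disp2 without control replicate 2 or model replicates 2 or 3 (adjusted p up to 0.0576). Leaving out 1 library moved the log2 fold change of Fam111a from -4.08 to -3.39 without control replicate 3, Dstnl1 from -3.88 to -3.15 without control replicate 3, Disp2 from -2.94 to -1.96 without control replicate 2 and Wbp11 from -4.41 to -9.71 without model replicate 3.

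Genes picked for the smallest p had tight replicates, which that choice itself favours. Bcar3, an adaptor of integrin signalling, stood at 44.7, 39.6 and 42.4 CPM in control and 242, 298 and 228 CPM in model (log2 fold change 2.60, SE 0.15, adjusted p = 6.53e-05). Mib1, the ligase that activates Notch ligands, stood at 4.69, 4.61 and 4.77 CPM in control and 18.9, 18.9 and 18.2 CPM in model (log2 fold change 1.99, SE 0.14, adjusted p = 0.000177). Wipf3, which acts on actin, stood at 55.9, 55.6 and 59.4 CPM in control and 14.8, 11.6 and 11.6 CPM in model (log2 fold change -2.17, SE 0.12, adjusted p = 6.53e-05). In each, the spread within a group was small against the distance between groups. Cblb, a ubiquitin ligase that restrains receptor signalling, was 2.92-fold higher, Ogfrl1 4.01-fold and Smim3, a small membrane protein, 2.93-fold. Asap3, a regulator of Arf, was 4.64-fold lower, Afap1l2, an adaptor of Src, 3.83-fold, and Golgb1, giantin of the Golgi, 3.22-fold. Among changed genes of high read number, Car3, a carbonic anhydrase abundant in fat, stood at 2964, 3743 and 4035 CPM in control and 10155, 15032 and 12858 CPM in model (log2 fold change 1.82, SE 0.24, adjusted p = 0.000919). H3f3b, histone H3.3, was 2.69-fold higher, Retsat, a retinol saturase of fat cells, 4.27-fold, and Cycs, cytochrome c, 3.13-fold. Shank3, a scaffold protein, was 2.18-fold lower and Ehbp1l1 2.22-fold. Scn7a, a sodium sensor channel of glia, was 2.33-fold lower.

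The direction of a call went with how many reads a gene had. In the decile of genes with the lowest mean level 6.48% rose and 16.3% fell, against 51.0% and 8.12% in the highest decile. It also went with length. The counted length of a gene, which the ratio of deposited counts to FPKM implies, had a median of 1880 bases for genes called higher, 2720 bases for genes called lower and 2090 bases for genes not called. In the shortest decile 32.0% rose and 7.57% fell, against 19.1% and 27.8% in the longest. Within the upper tercile of level, 53% of genes in the shortest tercile were called higher and 5.35% lower, and 28% and 19.7% in the longest. With library size alone, genes of the lowest level decile had a median log2 fold change of -0.60 beside -0.34 with TMM. RNA quality values were not among the labels, and the part of RNA quality or of library preparation in this pattern was not tested. Gene lists were set beside genes of similar level and not of similar length. In the middle tercile of level, 25.6% of genes in the shortest tercile were called higher and 13.5% lower. In the longest tercile the shares were 12.1% and 34.2%. The part of length in the shares of the gene lists was not tested.

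**Figure D4:**
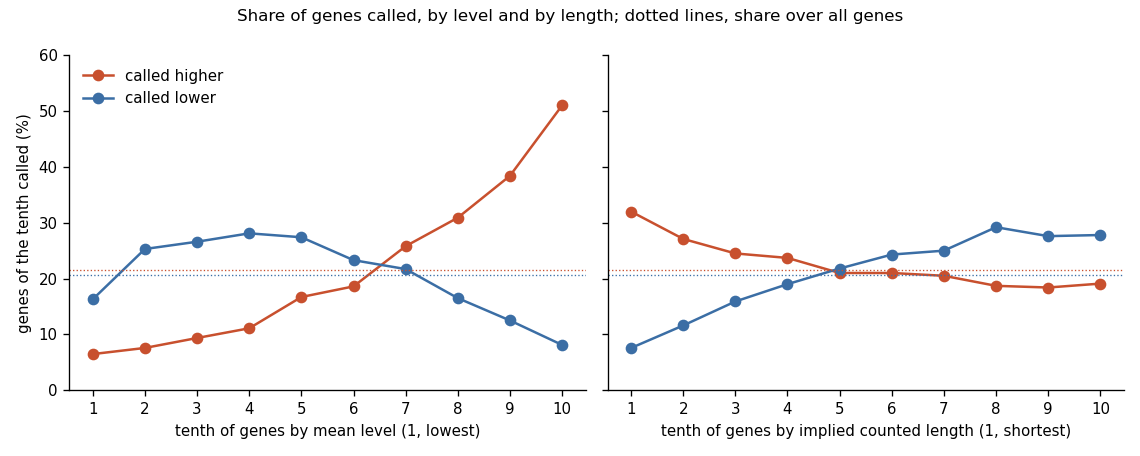
Percentage of genes called higher and lower in each decile of genes by mean level (left) and by implied counted length (right), with the shares of all genes as dotted lines. Higher calls increase from 6.48% to 51.0% with level and decrease from 32.0% to 19.1% with length.

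Markers of cells that could enter the dissection were compared in the same fit. Neutrophil genes summed to 117, 78.5 and 115 CPM in control and 183, 325 and 271 CPM in model. Of these genes 4 of 11 (36.4%, beside 6.48% of genes of similar level) were called higher. The other direction held 1 of 11 (9.09%, beside 16.3% of genes of similar level). Fibroblast genes summed to 54010, 40400 and 40840 CPM and 40400, 30220 and 36590 CPM, with 1 of 18 (5.56%, beside 51.0% of genes of similar level) called higher and 2 of 18 (11.1%, beside 8.12% of genes of similar level) lower. Brown fat genes summed to 1284, 1284 and 579.6 CPM and 2666, 7125 and 3328 CPM. Of them 6 of 10 (60%, beside 30.9% of genes of similar level) were called higher. Called lower was 1 of 10 (10.0%, beside 16.5% of genes of similar level). Hepatocyte genes, of which 6 passed the filter, summed to 26.5, 42.2 and 56.1 CPM and 87.2, 117 and 93.4 CPM. Gastric mucosa genes were near the limit of detection, with 40 to 57 counts in control and 26 to 64 in model over 13 genes, and squamous epithelium with 2 to 4 and 5 to 19.3 over 6. Of the 13 exocrine pancreas genes edgeR called 0 higher (1 at an unadjusted p under 0.05, 1 with DESeq2 and 0 with limma-voom) and 0 lower (0 at an unadjusted p under 0.05, 0 with DESeq2 and 0 with limma-voom). Of the 20 lymphocyte genes it called 0 higher (0 at an unadjusted p under 0.05, 0 with DESeq2 and 0 with limma-voom) and 0 lower (0 at an unadjusted p under 0.05, 0 with DESeq2 and 0 with limma-voom). Marco and Glycam1, which mark sinuses and high venules of lymph nodes, stood at 0.0710, 0 and 0.140 CPM in control and 0, 4.66 and 53.7 CPM in model and at 0.0710, 0.390 and 0.350 CPM in control and 1.84, 32.7 and 92.8 CPM in model, highest in model replicate 3. The median log2 fold change of the lymphocyte list was 0.42 and became -0.24 without model replicate 3. Omission of 1 library took the higher count of the neutrophil list from 4 to 2 without control replicates 2 or 3. Calls were lost when single libraries were left out for Marco without control replicates 1, 2 or 3 or model replicate 3 (adjusted p up to 0.137) and Glycam1 without control replicates 1, 2 or 3 (adjusted p up to 0.0595). Leaving out 1 library moved the log2 fold change of Marco from 7.96 to 8.80 without control replicate 3, Marco from 7.96 to 8.55 without model replicate 1, Marco from 7.96 to 4.90 without model replicate 3 and Glycam1 from 7.23 to 5.94 without model replicate 3.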

How the data were processed

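Poly(A) RNA was sequenced on a HiSeq2500 instrument, per the labels' protocols, and HISAT2 2.2.4, Bowtie2 2.2.5 and the build Rnor_6.0 appear in the submitters' processing notes. The tool that counted genes and its use of strand are not given in the sources used here, so reads of a gene cannot be told from those of an overlapping or antisense neighbour. The authors deposited estimated counts for 18964 genes, of which 88.8% of values were whole within a tolerance of 1e-09, and per the file headers the same table holds FPKM and TPM values by the authors. FPKM values served 1 alternative fit and the implied gene lengths, and TPM values no test. The authors' own log2 fold changes, p-values and q-values (DESeq2, per the file headers) were also deposited. In the authors' deposited table a q-value under 0.05 is given for 6747 genes, and 46 of the 47 genes named for size, p or level here have one with the same sign. A further 45 columns of per-sample values were not used.

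Estimated counts were rounded, filtered with filterByExpr and scaled with TMM (factors 0.873 to 1.15). All 9 libraries entered the quasi-likelihood test of edgeR 4.0.16 (R 4.3.3) with group as the only term, leaving 6 residual degrees of freedom, and the biological coefficient of variation was 23.3%. Each SE is the absolute log2 fold change over the square root of F. Totals of the 6 libraries were 12313813 to 13442211 counts, and 3 counts equal 0.195 to 0.269 CPM, which covers counting error only. Replicates differed beyond sampling noise (chi-square per degree of freedom 14.0 to 52.0). On simulated counts for model against control over 14643 genes, 91 of 100 genes changed 4-fold, 53 of 100 changed 2-fold and 10 of 14443 unchanged genes were called. The changed genes lay above a minimum count, and as many were raised as lowered. They were far fewer than the genes called in the data. The simulation therefore cannot give the rate of false or missed calls where so many genes differ and the balance depends on scaling.

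Members and lists were chosen with earlier results of these data known. There are 84 lists, 75 of them outside energy, fat and muscle. Named genes were the 12 largest rises and falls among called genes with at least 1 CPM in both groups and no overlap, the 12 of smallest p at 2-fold or more, the 6 most abundant rises and falls, up to 4 called members of each list by p, and other list members by role. Promoters are RefSeq's on GRCr8, 250 bases before the first listed start. They were matched by gene ID for 11445 of 14643 genes, of which 796 have further starts. Alternatives were other scalings, filters and tools (DESeq2 1.42.0, limma 3.58.1 with voom or on log2(FPKM + 1)), the 6 libraries alone, a replicate block and leaving out each library. Results for some genes are not reported here.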

Additional observations from a re-analysis of the deposited data

How the results depend on the processing

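Scaling changed the balance of calls more than the other choices. With library size alone 1619 genes were called higher and 4910 lower, and 493 and 2313 of them changed at least 2-fold, and with limma on log2(FPKM + 1) 1608 and 4860 were called, 340 of them at least 2-fold higher. Calls in all were 6768 with DESeq2, 6093 with limma-voom, 6560 with the 6 libraries alone, 5794 with no filter and 6211 with a mean of at least 1 CPM. Without 1 library, calls ranged from 4317 to 5432, higher calls from 2130 to 2864, lower calls from 2103 to 2568, and calls of at least 2-fold from 651 to 1060 higher and 992 to 1336 lower. With the replicate block 5365 genes were called. Same-numbered control and model libraries had correlations of deviations of 0.048, 0.057 and 0.086. Each library correlated best with a library of another number. Model replicates 1, 2 and 3 did so with control replicates 3, 1 and 2, at 0.1126, 0.1255 and 0.09445. With so few libraries, these values cannot show whether same-numbered libraries were collected or prepared together. Of the genes named in the text, those whose log2 fold change changed sign were not called. The log2 fold change of Flt4 was -0.0303 with library size alone and -0.0663 with FPKM, that of Nr3c1 -0.0791 and -0.0792, and that of Tsc22d3 -0.0302 with library size alone. Small folds of called genes, such as Clock, also depend on scaling. The median of all genes was -0.01 with TMM and -0.28 with library size alone. Without single libraries the log2 fold change ran from -0.0024 to 0.444 for Flt4, from -0.47 to 0.0885 for Dbp, from -0.433 to 0.141 for Dusp1, from -0.321 to 0.0208 for Nos3 and from -0.0228 to 0.468 for Tsc22d3. Of the counts of 4 or more called members in the 75 lists, 44 higher and 40 lower, library size alone moved 28 higher counts down and 14 lower counts up by more than 1.5 times, FPKM 31 and 14, and upper quartiles 8 and 4. DESeq2 moved 2 and 0, limma-voom 1 and 1, and the replicate block 3 and 5. Leaving out some single library moved 19 higher and 23 lower counts, and of the smaller counts, from 1 to 3 members, 12 of 21 higher and 14 of 21 lower. The causes were not tested. Low counts limit the lowest decile of genes by level, where the fewest calls were made.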

Other observations

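The machinery of self-digestion was measured as well. In autophagy 9 of 34 (26.5%, beside 25.8% of genes of similar level) were called higher and 3 lower. The genes of proteins that coat the forming vesicle, Map1lc3b and Gabarapl2, were 1.81-fold and 1.83-fold higher, and the cargo receptors Optn and Sqstm1 2.11-fold and 1.37-fold. Tfeb, a factor that drives lysosome genes, was 1.44-fold lower. In the list of the lysosomal proton pump and hydrolases 11 of 40 (27.5%, beside 30.9% of genes of similar level) were called higher and 1 lower, a share under that of genes of similar level. Lamp2, of the lysosomal membrane, was 1.73-fold higher and Ctsb, a cathepsin, 1.55-fold. The medians of both lists, 0.09 and 0.17, became -0.18 and -0.10 with library size alone. Loss of a single library took the higher count of the lysosomal list from 11 to between 6 and 7 without control replicates 1 or 3.

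Among motors and tubulins 23 of 66 (34.8%, beside 27.4% of genes of similar level) were called lower and 3 higher, and this list shares mitotic kinesins with the mitosis list. Kif3a and Kif7, of the cilium, were 1.65-fold and 1.52-fold lower. Among nuclear receptors Ppard, a sensor of fatty acids, stood at 33.9, 33.2 and 30.5 CPM in control and 141, 176 and 119 CPM in model (log2 fold change 2.16, SE 0.18, adjusted p = 0.000225), and the retinoid receptors Rarg and Rxrb were 2.23-fold and 1.79-fold lower. Among growth factors Pgf and Fgf2 were 4.69-fold and 3.73-fold higher, and Pdgfb and Fgf7 1.91-fold and 2.16-fold lower. The vascular growth factor list had 8 of 31 (25.8%, beside 18.6% of genes of similar level) called higher and 6 of 31 (19.4%, beside 23.3%) lower. In complement 8 of 26 (30.8%, beside 38.4% of genes of similar level) were called higher and 3 of 26 (11.5%, beside 12.5% of genes of similar level) lower, shares under or near those of similar genes, with Cd59, which shields cells from lysis, at 1.57-fold and C5ar2, a receptor for C5a, at 3.13-fold higher and C3ar1, a receptor for C3a, at 2.52-fold lower. A single omitted library took the lower count of the motor and tubulin list from 23 to 15 without control replicate 2 or model replicate 2.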
